A study of Arabidopsis thaliana with 6 samples.

Results

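Early flavonoid genes, 5 enzymes and 2 transcription factors, were examined in whole seedlings of Arabidopsis thaliana by RNA sequencing. The members were chosen by locus code, 7 of the 33341 genes in the count table, and all 7 had rows in it. They were chalcone synthase (CHS), chalcone isomerase (CHI), flavanone 3-hydroxylase (F3H), flavonoid 3′-hydroxylase (F3'H), flavonol synthase 1 (FLS1) and the regulators MYB12 and MYB111. One group was labelled pp7l-1, a mutant of PROTEIN PHOSPHATASE 7-LIKE (PP7L), and the other wild type, with titles that name Col, and each had 3 libraries. All seedlings were 4 days old and had grown at 22 °C in long days under 100 µmol photons per square metre and second, on agar with 1% sucrose. The series concerns the part of PP7L in chloroplast development. The labels do not describe the lesion of pp7l-1 and give no sign that replicates were grown apart, so each p-value reflects the spread among these libraries, which may be technical.

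Flavonoid synthesis starts from a phenylpropanoid, coumaroyl-CoA, which CHS joins to malonyl-CoA to give a chalcone. CHI closes the chalcone to a flavanone, F3H turns the flavanone into a dihydroflavonol, and F3'H adds a hydroxyl group to the side ring. FLS1 draws dihydroflavonols into flavonols, which act as ultraviolet screens, while dihydroflavonol reductase (DFR) draws them into anthocyanins. In Arabidopsis seedlings MYB12 and MYB111, with their relative MYB11, activate CHS, CHI, F3H and FLS1, and light acts on CHS through the bZIP factor HY5, which binds ACGT letters.

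Libraries labelled pp7l-1 held 11269557 to 13724880 counts and wild-type libraries 14342054 to 16744328. Plastid genes took 55.1 to 63.2% of the counts in libraries labelled pp7l-1 and 67.9 to 72.5% in the wild type, so nuclear genes other than those for ribosomal RNA held 4108998 to 5066206 counts in libraries labelled pp7l-1 and 3871880 to 5274928 in the wild type. The 4 nuclear ribosomal RNA genes took 7.56% of pp7l-1 replicate 1 and at most 0.0151% of any other library, so results are also given without that library. PP7L itself (AT5G10900) had 280, 247 and 315 counts in libraries labelled pp7l-1, against 24, 22 and 21 in the wild type. PP7L transcript was thus higher in the libraries labelled as its mutant, and every direction given here rests on those labels. Libraries held green shoot transcripts, with RBCS1A at 4920 ± 591 CPM in those labelled pp7l-1 and 4200 ± 658 CPM in the wild type (SD, n = 3 each). Root hair transcripts were present too, with EXPA7 at 5.88 ± 2.22 CPM in libraries labelled pp7l-1 and 12.2 ± 1.80 CPM in the wild type. CPM are counts scaled to a library of 1000000, after library sizes were adjusted with edgeR's TMM factors.

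The members lie on chromosomes 2, 3 and 5 of TAIR10.1. CHS (AT5G13930) spans 4488476 to 4490264 on the plus strand of chromosome 5, with F3'H (AT5G07990, 2560328 to 2563137, plus), FLS1 (AT5G08640, 2803833 to 2805606, plus) and MYB111 (AT5G49330, 19998823 to 20001572, minus) on the same chromosome. CHI (AT3G55120, 20430059 to 20431597, minus) and F3H (AT3G51240, 19025192 to 19026872, plus) are on chromosome 3, and MYB12 (AT2G47460, 19476326 to 19479597, plus) is on chromosome 2. Exons of CHI, F3'H, FLS1, MYB12 and MYB111 share no base with another counted gene, and those of CHS share 0.117%. F3H is the exception, since 93.8% of its exon bases also lie in AT3G51238, a long non-coding RNA annotated on the opposite strand. F3H had 272 counts over the 6 libraries and AT3G51238 had 266, so reads from the pair cannot be told apart by strand and every F3H value is uncertain in that respect.

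The 250 bases upstream of the RefSeq gene start (TAIR10.1) are shown for CHS and for 3 enzymes that MYB12 and MYB111 also act on, because CHS changed and the others did not pass the test. Capitals mark ACGT, the core that HY5 binds, and ACCNANC, letters found in many plant MYB sites. Both motifs were searched on both strands, and no match of one overlaps a match of the other in these windows. The CHI window held neither. The window of CHS is chr5:4488226-4488475 (plus), that of CHI chr3:20431598-20431847 (minus), that of F3H chr3:19024942-19025191 (plus) and that of FLS1 chr5:2803583-2803832 (plus), each read along its gene.
CHS: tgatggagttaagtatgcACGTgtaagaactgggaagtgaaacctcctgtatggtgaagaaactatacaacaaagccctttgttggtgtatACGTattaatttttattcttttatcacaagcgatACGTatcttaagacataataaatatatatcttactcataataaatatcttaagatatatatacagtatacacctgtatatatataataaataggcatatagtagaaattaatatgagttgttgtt
CHI: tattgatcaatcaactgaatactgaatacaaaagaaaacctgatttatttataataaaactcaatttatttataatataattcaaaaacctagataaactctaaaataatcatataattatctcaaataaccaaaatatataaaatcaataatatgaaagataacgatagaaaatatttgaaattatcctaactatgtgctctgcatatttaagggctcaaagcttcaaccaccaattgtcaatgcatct
F3H: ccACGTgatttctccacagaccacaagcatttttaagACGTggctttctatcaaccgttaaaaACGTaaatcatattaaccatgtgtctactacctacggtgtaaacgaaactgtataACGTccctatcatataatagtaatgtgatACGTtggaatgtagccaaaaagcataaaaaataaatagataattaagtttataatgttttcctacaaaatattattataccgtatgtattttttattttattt
FLS1: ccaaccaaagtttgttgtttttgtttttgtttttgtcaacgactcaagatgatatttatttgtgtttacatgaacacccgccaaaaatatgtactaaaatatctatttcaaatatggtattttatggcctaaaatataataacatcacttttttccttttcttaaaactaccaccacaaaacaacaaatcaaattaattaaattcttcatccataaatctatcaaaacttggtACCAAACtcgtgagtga
ACGT occurred 3 times in the CHS window and 5 times in that of F3H, and was in the windows of 4 of the 7 members, against 44.1% of 27443 promoters of the same length. The full G-box CACGTG, which contains ACGT, was in the windows of CHS, F3H and MYB12, 3 of 7, against 6.49% of all promoters. ACCNANC was in the windows of F3'H, FLS1 and MYB12, 3 of 7, against 27.8%. Each window ends at the annotated gene start, so letters inside the annotated exons were not searched. The lack of ACCNANC in the CHS window thus says nothing of the bases past that start. CHS and F3H, which differed in fold change, both held ACGT and the G-box. A match is a description of letters and not a binding site.

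CHS rose 4.39-fold, and it was the only member of the 5 that could be tested to pass. It had counts of 488, 436 and 472 in libraries labelled pp7l-1, against 83, 174 and 50 in the wild type. As levels these were 40.0, 30.3 and 26.3 CPM in libraries labelled pp7l-1, against 5.87, 11.2 and 4.64 CPM in the wild type. The groups did not overlap, as was so for 18.7% of all tested genes in this direction and 38.1% in either. The lowest library labelled pp7l-1 stood well above the highest wild-type library, replicate 2. The log2 fold change was 2.13 ± 0.28 (SE; 95% interval 1.54 to 2.72), with an adjusted p of 8.65e-05 in edgeR's quasi-likelihood test over 18115 genes. Over all those genes 21.9% passed, 10.6% higher and 11.3% lower, and by log2 fold change CHS had rank 115 from the top. Without pp7l-1 replicate 1, the library with ribosomal RNA, the log2 fold change of CHS was 1.95 ± 0.29 (adjusted p = 0.00045).

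CHI, which follows CHS in the pathway, had levels of 3.69, 4.52 and 2.45 CPM in libraries labelled pp7l-1, against 2.76, 3.28 and 1.95 CPM in the wild type. The groups overlapped, and the log2 fold change of 0.38 ± 0.29 did not pass (adjusted p = 0.368, 95% interval -0.22 to 0.99).

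F3H, the next enzyme, had 3.52, 2.99 and 2.56 CPM in libraries labelled pp7l-1, against 3.25, 3.99 and 2.97 CPM in the wild type. The groups overlapped here too, with a log2 fold change of -0.19 ± 0.25 (adjusted p = 0.621, 95% interval -0.71 to 0.33). When libraries were scaled on their size alone its sign turned, to 0.21 ± 0.31. The upper bound for F3H lay below the lower bound for CHS, as did those for CHI, F3'H and FLS1.

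F3'H, which decides whether quercetin-type or kaempferol-type products are made, was the most uneven enzyme. Its levels were 1.56, 2.85 and 0.779 CPM in libraries labelled pp7l-1, against 0.707, 1.87 and 0.928 CPM in the wild type. Replicate 2 was the high library in each genotype, and the groups overlapped. The log2 fold change was 0.51 ± 0.47 (adjusted p = 0.467, 95% interval -0.48 to 1.5), and without pp7l-1 replicate 2 it was -0.06 ± 0.48. With 10, 29 and 10 wild-type counts, F3'H passed the count filter only through the libraries labelled pp7l-1.

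FLS1, the enzyme that commits dihydroflavonols to flavonols, had 5, 5.29 and 5.45 CPM in libraries labelled pp7l-1, against 3.54, 4.12 and 2.97 CPM in the wild type. Its groups did not overlap, as was so for 18.7% of all tested genes in this direction and 38.1% in either. Its log2 fold change of 0.56 ± 0.22 had an unadjusted p of 0.0205 and an adjusted p of 0.0774, so it did not pass over all genes (95% interval 0.10 to 1.02). It passed when libraries were scaled on size alone, at 0.97 ± 0.29 (adjusted p = 0.0103), a scaling under which the median of all genes was 0.41 in place of -0.01.

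The regulators were read too rarely for the test, since neither passed the filter on low counts. MYB12 had 5, 6 and 7 counts in libraries labelled pp7l-1, against 6, 8 and 3 in the wild type, or 0.405 ± 0.0145 CPM in libraries labelled pp7l-1 and 0.406 ± 0.119 CPM in the wild type (SD, n = 3 each). The groups overlapped, and the ratio of summed counts was 0.961, with an exact 95% interval of 0.468 to 1.99 that covers counting error only. MYB111 had 6, 4 and 6 counts in libraries labelled pp7l-1, against 3, 2 and 1 in the wild type, which made 0.368 ± 0.111 CPM in libraries labelled pp7l-1 and 0.145 ± 0.0613 CPM in the wild type. Its groups did not overlap, as was so for 18.7% of all tested genes in this direction, a share counted without genes this weakly read. The ratio of summed counts was 2.42, with an exact interval of 0.90 to 7.55. Fitted with no count filter, MYB111 had a log2 fold change of 1.27 ± 0.84 (edgeR adjusted p = 0.357) and MYB12 one of -0.02 ± 0.63 (adjusted p = 0.987). Both exact intervals included a ratio of 1, so no difference of either regulator was resolved at this depth. MYB11, their relative, had 1, 1 and 0 counts in libraries labelled pp7l-1 and 0 in each wild-type library.

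**Figure D1:**
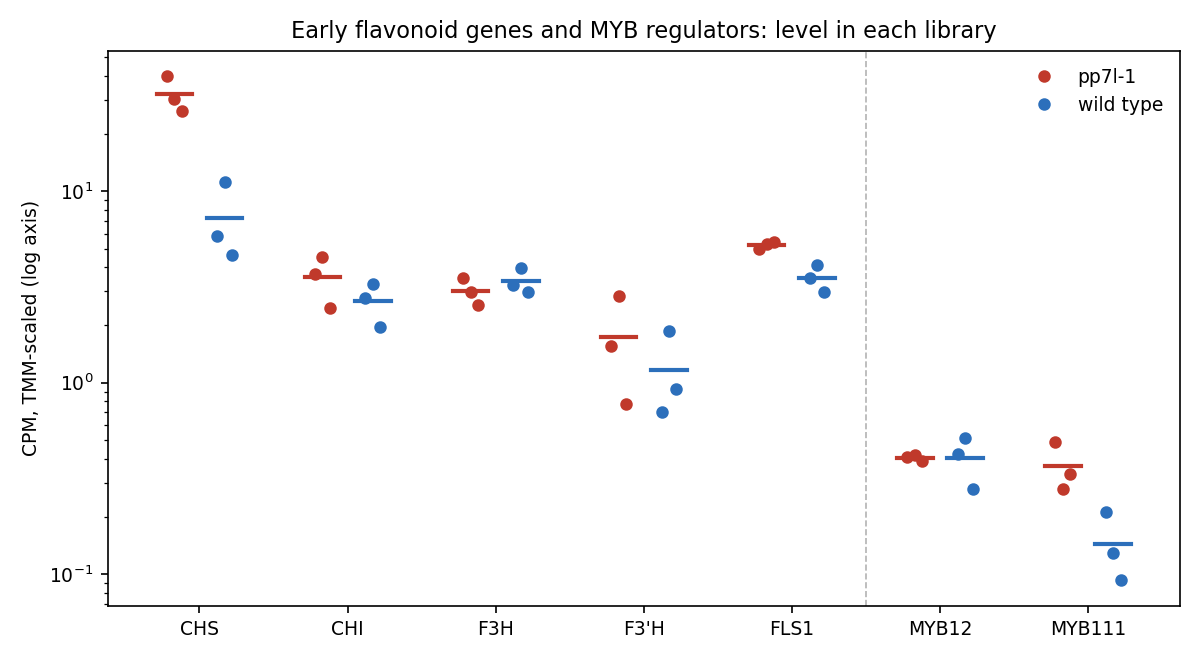
Level of each member in each library, in TMM-scaled CPM on a log axis, with red points for pp7l-1, blue points for the wild type and bars at the group means; the dashed line parts the enzymes from the regulators. CHS is the gene whose groups lie far apart, from 26.3 CPM upward in pp7l-1 against 11.2 CPM and below in the wild type, while CHI, F3H, F3'H and MYB12 overlap.

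Within each genotype the libraries ranked the members alike in part. In the wild type, replicate 2 had the highest level of 6 of the 7 members and replicate 3 the lowest level of 6. In libraries labelled pp7l-1, replicate 3 had the lowest TMM-scaled level of 5 members but the highest of FLS1. Its TMM factor was 1.352, against 1.085 and 1.049 in the other libraries labelled pp7l-1, and a larger factor gives lower CPM. As a share of nuclear counts without ribosomal RNA, in the unit used below, CHS was lowest in replicate 2. It stood at 86.1 there, against 98.1 in replicate 3. The count of 5 thus depends in part on the scaling. Wild-type replicate 2 was thus high for the enzymes and MYB12 together, and without it the log2 fold change of CHS was 2.60 ± 0.27 and that of F3'H 1.07 ± 0.54.

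Per kilobase of exon, CHS was the most abundant member in both genotypes, but by a different margin. Its level was 18.9 ± 4.14 counts per kilobase and 1000000 counts in libraries labelled pp7l-1 and 4.25 ± 2.05 in the wild type (SD, n = 3 each). In libraries labelled pp7l-1 it was followed by FLS1 at 3.24 ± 0.142, CHI at 3.19 ± 0.939, F3H at 2.01 ± 0.320, F3'H at 0.896 ± 0.543, MYB12 at 0.256 ± 0.00914 and MYB111 at 0.225 ± 0.0678. Of those neighbours, FLS1 and CHI overlapped, as did CHI and F3H, and MYB12 and MYB111. In the wild type the order after CHS was CHI at 2.39 ± 0.604, F3H at 2.26 ± 0.349, FLS1 at 2.19 ± 0.355, F3'H at 0.605 ± 0.319, MYB12 at 0.256 ± 0.0754 and MYB111 at 0.0886 ± 0.0375. There the ranges of CHS, CHI, F3H and FLS1 overlapped from one to the next, whereas F3'H, MYB12 and MYB111 each lay apart from its neighbour.

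As a share of all counts of the 7 members, CHS made up 73.2, 65.0 and 68.7% in libraries labelled pp7l-1 and 35.0, 44.6 and 33.6% in the wild type. The other 6 members summed to 44.9 ± 1.42 per 1000000 nuclear counts (ribosomal RNA left out) in libraries labelled pp7l-1 and 33.4 ± 7.69 in the wild type (SD, n = 3 each), and CHS to 101 ± 16.5 in libraries labelled pp7l-1 and 21.3 ± 10.4 in the wild type. Neither pair of groups overlapped, and the exact two-sided permutation p was 0.1 for each, which is the lowest value possible with 3 libraries a group (adjusted p = 0.1 over 6 shares).

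Ratios within a library do not depend on how libraries are scaled, and they set the enzymes against CHS directly. Per kilobase, F3H stood at 0.0995, 0.111 and 0.110 of CHS in libraries labelled pp7l-1, against 0.626, 0.402 and 0.723 in the wild type. In log2 terms this ratio differed by -2.41, with means of -3.23 ± 0.09 in libraries labelled pp7l-1 and -0.82 ± 0.44 in the wild type (SD, n = 3 each). The ratio to CHS differed by -1.83 for CHI, -1.74 for F3'H and -1.66 for FLS1. For all 4 ratios, each library labelled pp7l-1 lay below each wild-type library. The 4 share CHS as their denominator, so they largely restate its rise and are not 4 separate results.

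Of the remaining ratios, MYB111 over MYB12 differed by 1.35, with 1.16, 0.647 and 0.831 in libraries labelled pp7l-1, against 0.485, 0.242 and 0.323 in the wild type. At 1 to 8 counts a gene this ratio is coarse. DFR over FLS1, the split of dihydroflavonols between anthocyanins and flavonols at transcript level, was 0.907, 0.630 and 0.467 in libraries labelled pp7l-1, against 0.0639, 0.0333 and 0.0998 in the wild type. The log2 difference was 3.43, the largest of the 6 ratios. DFR had 3, 2 and 3 counts in the wild type, so this ratio is coarse too. Each of the 6 had an exact two-sided permutation p of 0.1, the smallest possible here (adjusted p = 0.1 over the 6).

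**Figure D2:**
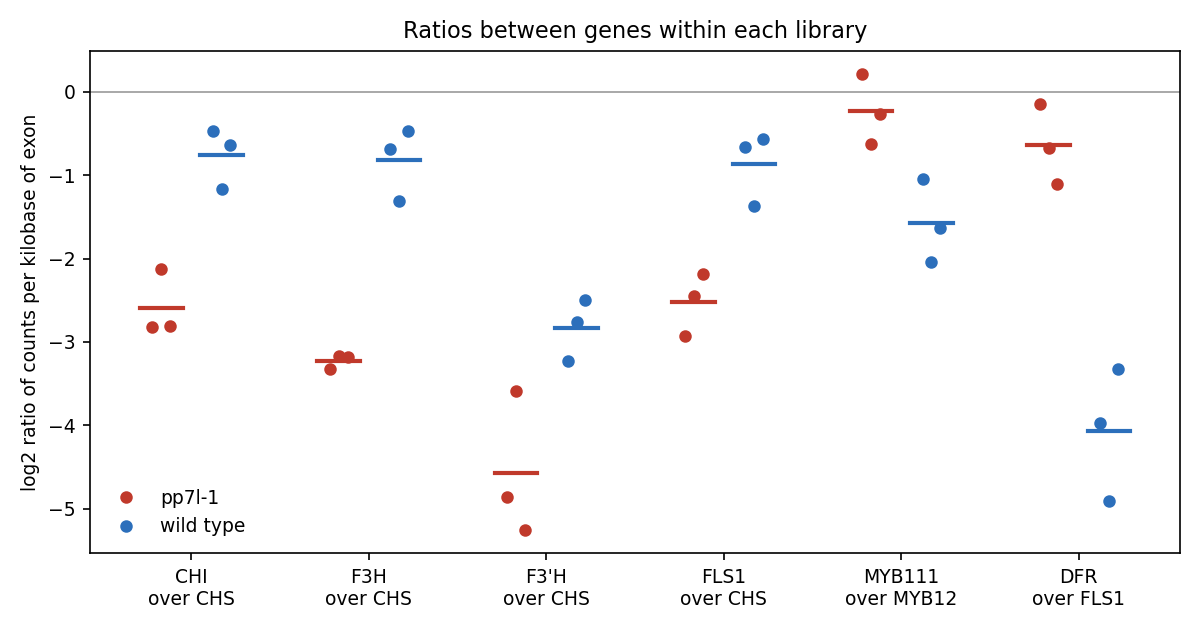
Log2 ratios between genes within each library, from counts per kilobase of exon, with red points for pp7l-1, blue points for the wild type and bars at the group means. The 4 enzymes lie lower against CHS in every library labelled pp7l-1 than in any wild-type library. DFR lies higher against FLS1, by 3.43, with 3, 2 and 3 DFR counts in the wild type.

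Upstream of CHS, most genes of the general phenylpropanoid route did not pass. Among the 10 genes tested there, 2 were called higher, 1 lower and 7 neither, a count near the 21.9% called among all tested genes. The median log2 fold change was 0.06, beside -0.01 for all tested genes. PAL1, which takes phenylalanine into the route, was at 24.0 ± 1.24 CPM in libraries labelled pp7l-1 and 26.6 ± 3.73 CPM in the wild type, and C4H, the next enzyme, at 52.9 ± 2.86 CPM in libraries labelled pp7l-1 and 46.1 ± 1.01 CPM in the wild type (SD, n = 3 each). The coumarate ligases 4CL3, the copy tied to flavonoid synthesis, and 4CL1 rose by 1.15 ± 0.34 (edgeR adjusted p = 0.0234) and 0.61 ± 0.21 (0.0455) on the log2 scale. ATR2, a reductase that serves cytochrome P450 enzymes such as C4H and F3'H, had -0.71 ± 0.20 (adjusted p = 0.019). 4CL1 did not pass in DESeq2 (0.0619), nor did ATR2 with libraries scaled on size alone (0.385), and 4CL3 did not pass without wild-type replicate 2 (0.056). With 19, 18 and 8 wild-type counts, 4CL3 passed the count filter only through the libraries labelled pp7l-1. Leaving out pp7l-1 replicate 1 left 0 of these calls, and leaving out either replicate 1 or replicate 3 of the wild type left 1.

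Downstream of FLS1, 3 of 5 listed glycosyltransferases of flavonols rose. In the flavonol decoration list 6 genes were tested, of which 4 rose, 0 fell and 2 were not called, beside 10.6% of all tested genes higher and 11.3% lower. The median log2 fold change of the 6 was 1.01. UGT89C1, which adds rhamnose to the 7 position of flavonols, had 9.09, 7.10 and 6.68 CPM in libraries labelled pp7l-1, against 1.91, 3.22 and 1.95 CPM in the wild type. Its log2 fold change was 1.66 ± 0.25 (edgeR adjusted p = 0.000269), but 99.6% of its exon bases lie in AT1G06002, a non-coding gene with 423 counts beside its own 431. UGT78D1, which adds rhamnose to the 3 position, rose by 1.34 ± 0.22 (adjusted p = 0.000596). UGT78D2, which adds glucose there, rose by 1.19 ± 0.28 (adjusted p = 0.00703). RHM1, which makes the rhamnose donor, rose by 0.70 ± 0.18 (adjusted p = 0.0118), and did not pass without wild-type replicate 2 (0.0521). UGT73C6, another flavonol glycosyltransferase, had 4.26, 3.13 and 5.01 CPM in libraries labelled pp7l-1, against 3.32, 2.19 and 1.3 CPM in the wild type. Its groups overlapped and it did not pass (0.84 ± 0.31, adjusted p = 0.06), and all its exon bases lie in AT2G36792 as well. UGT78D3 had 3 counts in libraries labelled pp7l-1 and 1 in the wild type and was not tested. OMT1, a methyltransferase of flavonols and lignin precursors, had 0.24 ± 0.21 and did not pass.

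The flavonol synthase copies other than FLS1 were weakly read. FLS5 was the only one of 5 that could be tested, with 4.41 ± 1.41 CPM in libraries labelled pp7l-1 and 7.03 ± 2.04 CPM in the wild type (SD, n = 3 each). Its log2 fold change of -0.68 ± 0.27 did not pass (edgeR adjusted p = 0.0813), but it passed without pp7l-1 replicate 3 (-0.89, 0.0373) or wild-type replicate 3 (-0.86, 0.0398). FLS6 had 0 counts in all 6 libraries, and FLS2, FLS3 and FLS4 were not tested.

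Most late anthocyanin genes rose. Of 8 tested, 6 rose, 0 fell and 2 did not pass, beside 10.6% of all tested genes higher, and their median log2 fold change was 2.24. DFR rose by 3.96 ± 0.44, LDOX, the next enzyme, by 2.87 ± 0.43 and TT19, a carrier of flavonoids to the vacuole, by 2.94 ± 0.46 (3.93 without wild-type replicate 3). UF3GT, a glycosyltransferase of anthocyanins, had 53 counts in libraries labelled pp7l-1 and 2 in the wild type. The ratio was 24.1 (exact 95% interval 6.34 to 204, for counting error only). Wild-type counts were 3, 2 and 3 for DFR, 3, 3 and 5 for LDOX and 4, 2 and 10 for TT19. These genes and UF3GT passed the count filter only through the libraries labelled pp7l-1. The count of 6 and the median of 2.24 thus depend in part on the filter, as does their comparison with all genes. Of 8 regulators of anthocyanin genes only EGL3 and TTG1 could be tested, and neither passed, with values of 0.04 ± 0.50 and 0.07 ± 0.28. The signs of those small values turned when single wild-type libraries were left out, to -0.46 for EGL3 without replicate 2 and -0.20 for TTG1 without replicate 3. EGL3, with 14, 3 and 10 wild-type counts, passed the count filter only through the libraries labelled pp7l-1. PAP1, which activates late genes, had 11, 6 and 6 counts in libraries labelled pp7l-1, against 1, 4 and 2 in the wild type, and was not tested.

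**Figure D3:**
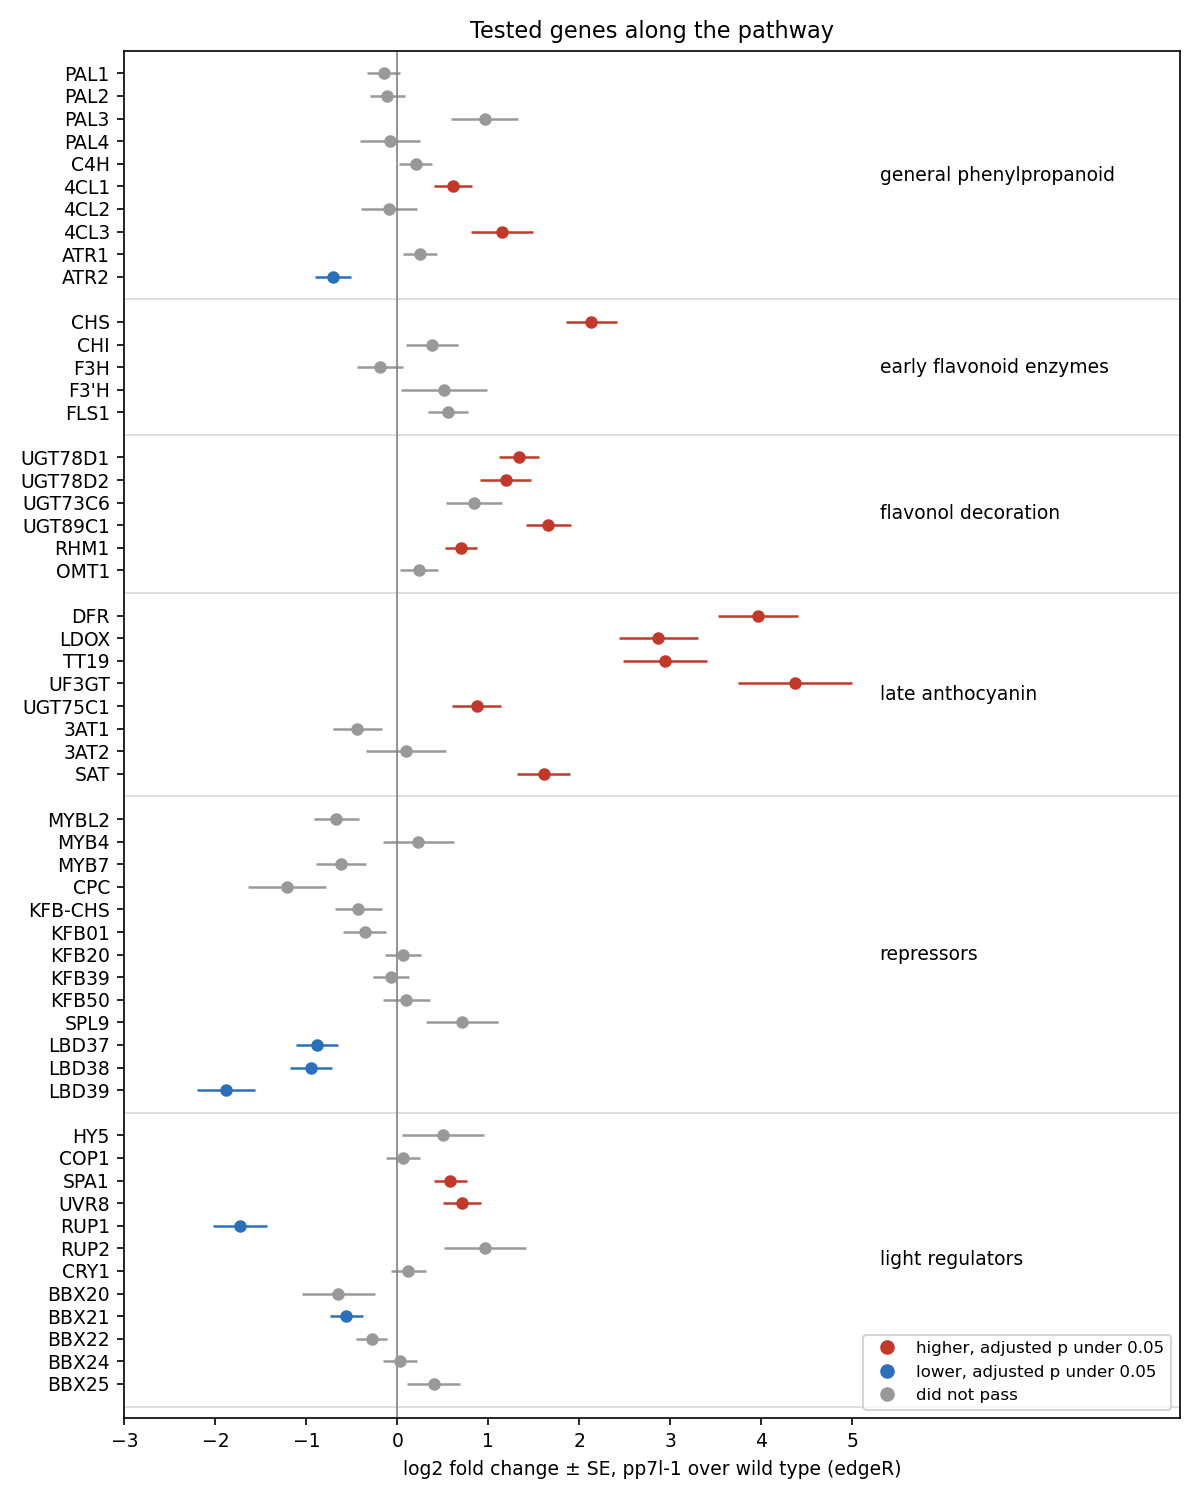
Log2 fold change ± SE (edgeR, pp7l-1 over wild type) of each tested gene, from the general phenylpropanoid route at the top through the early enzymes to decoration, anthocyanin genes, repressors and light regulators; red and blue points passed as higher and lower, grey points did not pass. CHS at 2.13 stands apart from the other early enzymes, whose values run from -0.19 to 0.56.

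Among genes that hold the pathway back, 3 of 13 tested fell, 0 rose and 10 did not pass, with a median of -0.43. The share called was near that of all tested genes, 21.9% (11.3% lower), so the count says nothing particular of the list. The 3 were the LBD factors LBD39, LBD38 and LBD37, nitrate-induced repressors of anthocyanin genes. LBD39 had 4.10, 8.98 and 3.62 CPM in libraries labelled pp7l-1, against 28.2, 13.5 and 19.5 CPM in the wild type, a log2 fold change of -1.88 ± 0.32 (edgeR adjusted p = 0.00068) with groups that did not overlap. Among all tested genes, 19.5% had groups that did not overlap in this direction. LBD38 had -0.95 ± 0.23 (adjusted p = 0.0077) and LBD37 had -0.88 ± 0.23 (0.0122). Scaled on library size alone, LBD38 and LBD37 did not pass (0.109 and 0.157), nor did LBD37 without wild-type replicate 3 (0.0617). MYBL2, a MYB repressor of the late genes, had -0.67 ± 0.25 (adjusted p = 0.067), and KFB-CHS (AT1G23390), an F-box protein that targets the CHS enzyme for breakdown, had -0.43 ± 0.26 (0.261).

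Among 12 tested light regulators of CHS 2 rose, 2 fell and 8 did not pass, with a median of 0.09. Over all tested genes 10.6% were higher and 11.3% lower. The ultraviolet B receptor UVR8 had 24.3, 18.4 and 15.5 CPM in libraries labelled pp7l-1, against 10.2, 11.7 and 13.7 CPM in the wild type, and rose by 0.71 ± 0.21 (edgeR adjusted p = 0.0225). RUP1, which turns UVR8 signalling off, had 2.29, 1.67 and 0.89 CPM in libraries labelled pp7l-1, against 4.81, 5.86 and 5.01 CPM in the wild type, a log2 fold change of -1.73 ± 0.30 (adjusted p = 0.000765) with groups far apart. RUP2, also in this list, had a value of the other sign and did not pass (0.96 ± 0.45, edgeR adjusted p = 0.139). It had 32, 15 and 24 counts in libraries labelled pp7l-1, against 19, 9 and 6 in the wild type. SPA1, a partner of the light repressor COP1, rose by 0.58 ± 0.18 (adjusted p = 0.0329), and BBX21, which promotes light responses, had -0.56 ± 0.18 (0.0402). HY5 had 9, 20 and 11 counts in libraries labelled pp7l-1, against 7, 13 and 6 in the wild type, with a log2 fold change of 0.50 ± 0.45 that did not pass (adjusted p = 0.458). HY5 and RUP2 passed the count filter only through the libraries labelled pp7l-1. The count of light regulators that passed was 1 when pp7l-1 replicate 1 or wild-type replicate 2 was left out, and 2 when pp7l-1 replicate 3 or either of the other wild-type libraries was. RUP1 passed with each library left out, whereas UVR8 did not pass without pp7l-1 replicate 1 (0.129), wild-type replicate 1 (0.0977) or wild-type replicate 2 (0.0683). SPA1 passed in 1 of the 6 fits that left out a library, the one without pp7l-1 replicate 2, and otherwise had adjusted p of 0.0668 to 0.113. BBX21 passed under 6 of the 15 other ways of fitting, and not in DESeq2 (0.0731) or with libraries scaled on size alone (0.665).

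Flavonoid genes are not active evenly over a seedling, and markers of its parts also differed between the genotypes. Beside the 10.6% higher and 11.3% lower among all tested genes, 4 of 5 shoot epidermis markers rose and 0 fell. PDF1 rose by 1.85 ± 0.19, and ATML1, PDF2 and FDH by 0.65 ± 0.19, 0.52 ± 0.17 and 0.66 ± 0.19. CER6, the most abundant of the 5, did not pass (-0.21 ± 0.21), and its groups overlapped. The summed level of the 5 was 243 to 296 CPM in libraries labelled pp7l-1 and 192 to 226 CPM in the wild type. Of 6 tested root markers 2 rose (SHR and SCR) and 3 fell (TIP2;3, EXPA7 and COBL9), with sums of 51.2 to 71.1 CPM in libraries labelled pp7l-1 and 72.2 to 109 CPM in the wild type, and NRT2.1 had at most 3 counts in a library. PHT1, which did not pass (-0.21 ± 0.24), held most of those sums. It was at 45.6 ± 8.37 CPM in libraries labelled pp7l-1 and 52.6 ± 17.5 CPM in the wild type. The sums thus do not show a shift of the root markers as a group. Green shoot markers rose in 1 of 4, with sums of 13300 to 16900 CPM in libraries labelled pp7l-1 and 10200 to 13700 CPM in the wild type. Seed storage markers rose in 4 of 4 tested. The sums over that list were 29.2 to 119 CPM in libraries labelled pp7l-1 and 3.47 to 5.85 CPM in the wild type. Of the markers that rose, SHR, CRU2 and SESA3 passed the count filter only through the libraries labelled pp7l-1. The part of these shifts in the CHS result was not tested, and in whole seedlings fewer cells of a type and less RNA per cell cannot be told apart.

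Genes with the pattern most like the mean profile of the 5 enzymes over the 6 libraries were looked up as a description, by the distance between log2 profiles centred on each gene. The nearest were AT4G20362 and RABE1b, which overlap in the genome, then OTC, PHOS34, RPL18 and RKL1, at distances of 0.13 to 0.21. CHI lay at 0.49 and CHS at 1.93 from the same mean. Both are part of that mean, so these distances follow largely from the fold changes already given. Between members, CHI and FLS1 were closest, at 0.72, and CHS and F3H farthest apart, at 2.98. A look-up for CHS alone was chosen after its values were seen. The nearest genes were CRR6, AT2G07655, EDA9, EXPA4, NRT1.7 and the mitochondrial ATMG00660, at 0.57 to 0.72.

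The rise of CHS passed under all 15 other ways of fitting the counts that were tried, with log2 fold changes of 1.93 to 2.60. CHI did not pass under any of the 15 (0.18 to 0.76), nor did F3H (-0.30 to 0.21) or F3'H (-0.06 to 1.07), and FLS1 passed under 1 of them.

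**Figure D4:**
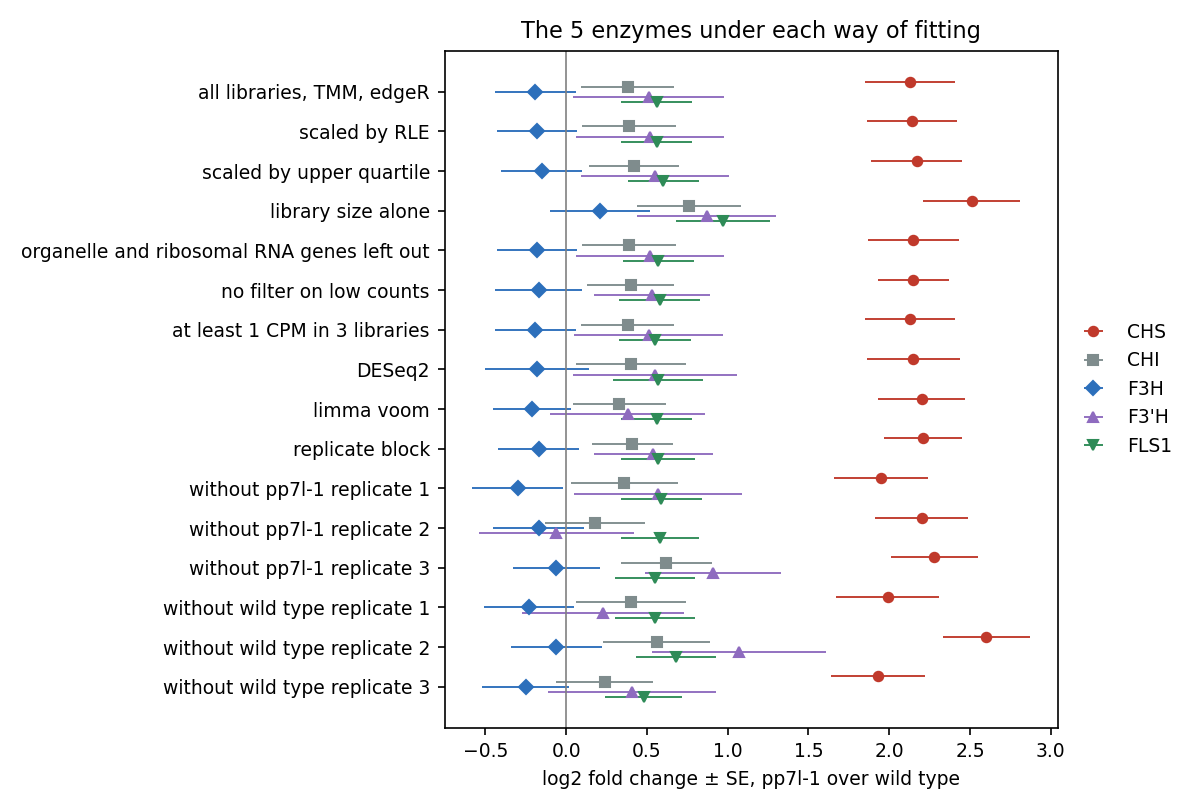
Log2 fold change ± SE, pp7l-1 over wild type, of the 5 enzymes with all libraries in edgeR (top row) and under each of 15 other ways of fitting. CHS (red) lies between 1.93 and 2.60 throughout, to the right of the other enzymes in each row.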

How the data were processed

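The authors deposited 1 table per library with raw counts of reads for each of 33341 genes. The tools featureCounts, TopHat2 2.1.1, FastQC and Trimmomatic, and the build TAIR10, are given per the submitters' processing notes; the settings, strand handling and annotation are not given in the sources used here. Coordinates, exon lengths, overlaps and sequences come from RefSeq (TAIR10.1), not the named build itself. The files hold no coordinates.

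Low genes were removed by filterByExpr of edgeR (minimum count 10), leaving 18115. Libraries were scaled by TMM and tested with edgeR 4.0.16 (quasi-likelihood, genotype only, R 4.3.3), with Benjamini-Hochberg adjustment over all tested genes and calls at 0.05. The biological coefficient of variation common to all genes was 0.196. Counts were also simulated with 200 changed genes, and 17808 genes were tested. The same steps called 97.9% of genes changed 4-fold and 57.3% of those changed 2-fold, and 9.26% of the calls were false. In the data 21.9% of tested genes were called, a far larger share than was changed in the simulation. These rates thus do not give the power of the comparison itself. Ratios and shares were tested by exact permutation (scipy 1.17.1). Alternatives were DESeq2 1.42.0, limma 3.58.1 voom, other scalings and filters, a replicate block and leaving out each library. The members and lists were chosen with earlier results of these data known. Named genes were all members, up to 4 that passed per list, or the 2 most abundant where none passed. Other named genes were chosen after their values were seen. Likeness was not computed for MYB12 and MYB111, which were not tested.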

Additional observations from a re-analysis of the deposited data

How the results depend on the processing

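The rise of CHS, and the lack of a pass for CHI, F3H and F3'H, held under DESeq2, limma voom, each scaling, each filter, the replicate block and each library left out. With the replicate block, CHS had a log2 fold change of 2.21; the numbers pair libraries by name only, since deviations of same-numbered libraries correlated at 0.1, -0.028 and 0.054, and the block called 1 member, as did the fit without it. Scaled on library size alone, 2 members passed, FLS1 with 0.97, F3H had 0.21 in place of -0.19, and the calls over all genes were 4493 upward and 759 downward (85.5% upward, 48.6% with TMM factors), with a median log2 fold change of 0.41. F3'H had -0.06 without pp7l-1 replicate 2. Over the fits that left out 1 library, its log2 fold change ran from -0.06 to 1.07, genes called higher from 1274 to 2146 and lower from 1384 to 2219, beside 1929 and 2043 with all. Over the same fits the genes called ran from 0 to 4 in the general phenylpropanoid list, from 0 to 1 among other FLS copies, from 1 to 4 among light regulators and from 3 to 5 in the monolignol and sinapate branch. With no filter on low counts 1 other FLS copy and 5 repressors were called, and with the replicate block 5 repressors. With single libraries left out, EGL3 ran from -0.46 to 0.43 and TTG1 from -0.20 to 0.45. The cause of these shifts was not tested. All 6 ratios kept their sign with each library left out. Depth limits the regulators most, since MYB12 and MYB111 had at most 8 counts in a library.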

Other observations

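The branch that competes with CHS for coumaroyl-CoA, towards lignin and sinapate esters, held 9 tested genes, of which 4 rose, 1 fell and 4 did not pass, beside 10.6% higher and 11.3% lower among all tested genes. UGT84A2, which makes sinapoyl glucose, was at 6.72 ± 1.25 CPM in libraries labelled pp7l-1 and 1.55 ± 0.197 CPM in the wild type (SD, n = 3 each), a log2 fold change of 2.11 ± 0.25 (edgeR adjusted p = 3.66e-05). CCR1 and F5H1, of the lignin and sinapate routes, rose by 1.08 ± 0.23 and 0.98 ± 0.20, where 77.2% of the exon bases of CCR1 lie in other counted genes. SNG1, which uses sinapoyl glucose, had -0.73 ± 0.21 (adjusted p = 0.0221). It did not pass without pp7l-1 replicate 1 (0.0506), pp7l-1 replicate 2 (0.0598) or wild-type replicate 1 (0.113), or with libraries scaled on size alone (0.398). Without pp7l-1 replicate 1 or wild-type replicate 1, 3 genes of the branch passed.

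Relatives of CHI went separate ways. Of 4 tested genes of the MYB11 and CHI-fold list 1 rose, 1 fell and 2 did not pass, where 21.9% of all tested genes were called. FAP1, a plastid fatty acid binding protein of the CHI fold, was at 5.85 ± 0.401 CPM in libraries labelled pp7l-1 and 3 ± 0.212 CPM in the wild type (SD, n = 3 each), a log2 fold change of 0.96 ± 0.21 (edgeR adjusted p = 0.00465). FAP3 was at 0.128 ± 0.175 CPM in libraries labelled pp7l-1 and 10.9 ± 0.990 CPM in the wild type, with -6.49 ± 0.42 (-8.11 without pp7l-1 replicate 1). With 4, 0 and 1 counts in libraries labelled pp7l-1, FAP3 passed the count filter only through the wild-type libraries. The size of its fold change is thus coarse, and the count of genes that fell in this list depends in part on the filter. CHIL, which aids CHS and CHI, was at 5.56 ± 0.772 CPM in libraries labelled pp7l-1 and 4.24 ± 0.475 CPM in the wild type and did not pass (0.40 ± 0.21, adjusted p = 0.197). Of 5 seed coat proanthocyanidin genes 0 could be tested, with sums of 0.779 to 1.32 CPM in libraries labelled pp7l-1 and 0.901 to 1.41 CPM in the wild type.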
